A study of Mus musculus with 3 samples.

Results

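The circadian clock genes described here are 10 genes taken by name from the 21728 protein-coding genes of the GENCODE M21 annotation on autosomes and X, namely Clock, Per1, Per2, Per3, Cry1, Cry2, Nr1d1, Nr1d2, Rora and Dbp. The genes are given by name, without a threshold on any value, and all 10 were found by symbol. For each gene and replicate the promoter peak was the strongest one that lay no more than 1 kb from a start site of the gene. Peaks over 1 kb from all protein-coding start sites were called distal. Each was assigned to whichever gene had the closest start, up to 100 kb away; closeness is no evidence that the peak acts on that gene.

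Chromatin accessibility had been mapped by DNase-seq, in which DNase I cuts open stretches of chromatin such as promoters and enhancers. The series is 1 group of 3 biological replicates of primary Müller cells, the radial glia of the retina, from B6NCrl mice aged 12 days with males and females pooled; 1 of the replicates is also labelled healthy. All replicates carry the same donor label, and the protocol linked in the labels was written for cultured cells, so spreads between replicates may be partly technical. There was no second condition, and the labels used here give no time of day and no lighting schedule, so the values below describe 1 state of the clock loci and no test between conditions was possible. Replicates 1, 2 and 3 held 300269, 281185 and 184544 peaks, and their read depth is unknown. Promoters of all 12 Müller glia markers checked, among them Rlbp1 and Glul, had a peak in every replicate. Promoters of microglia and macrophage markers had one for 19, 19 and 6 of 19 genes in replicates 1, 2 and 3. Over all genes the shares with a promoter peak were 74%, 73% and 70.8%. Of 7 rod, 6 endothelial, 4 pericyte and 3 ganglion cell markers, 3, 4, 3 and 2 were open in all replicates, compared with 68.3% of all genes. The open rod genes were Gnat1, Nrl and Sag, while the promoters of Crx, Nr2e3, Pde6b and Pdc were without a peak throughout.

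The molecular clock is a feedback loop of transcription. CLOCK pairs with BMAL1, the product of Arntl, and binds E-boxes in Per and Cry genes, whose protein products return to the nucleus and repress that pair. A further loop joins the nuclear receptors REV-ERB, encoded by Nr1d1 and Nr1d2, which repress through ROR elements, and the ROR receptors, which activate through the same elements. DBP, a PAR bZIP factor whose own gene is an E-box target, drives genes with D-boxes. The retina keeps clocks of its own, and Müller glia are among the retinal cells known to express clock genes.

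Because the loop works through these short elements, the accessible sites were searched for them on both strands, and the sites that hold them are shown first. The letters searched were CACGTG for the E-box, CACGTT for the E-prime box, TTATGTAA and TTACGTAA for the D-box, TAGGTCA and TGGGTCA for the ROR element, TGACGTCA for the cyclic AMP element, TGANTCA for AP-1, and the core of CTCF by name. The E-box and the E-prime box differ in their last letter, and a CACGTT match on the other strand reads AACGTG. Sequences are from the RefSeq copy of the mouse genome (GRCm38.p6, the build mm10), run 5′ to 3′ on the gene's strand, and have the elements of the clock and of cyclic AMP in capitals. Bases that a UTR of any GENCODE or RefSeq transcript covers were trimmed, and where an element lay on such bases only 30 bases round it are shown. A match is a description of letters and does not show that a factor was bound.

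E-boxes lay in accessible promoter sites of Per1, Cry1, Nr1d2 and Dbp and in distal sites of Per1, Cry2, Nr1d1 and Rora. The promoter sites and the strongest distal sites among these are printed, in order from the site upstream of the first Per1 start (chr11:69094896-69095107, plus strand), from the site just before the second Per1 start-site cluster (chr11:69098771-69098800, plus strand), from the Cry1 promoter (chr10:85185065-85185165, minus strand), from intron sites of Cry2 (chr2:92423796-92424005, minus strand) and Nr1d1 (chr11:98773856-98774085, minus strand), from the intron site of Nr1d2 beside its promoter (chr14:18238436-18238625, minus strand) and from the site inside Dbp (chr7:45707676-45707865, plus strand).
Per1 upstream: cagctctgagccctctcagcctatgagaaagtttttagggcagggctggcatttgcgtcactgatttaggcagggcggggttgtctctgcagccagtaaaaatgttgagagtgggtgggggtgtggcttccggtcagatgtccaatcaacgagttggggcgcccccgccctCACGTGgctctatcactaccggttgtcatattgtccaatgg
Per1 second start: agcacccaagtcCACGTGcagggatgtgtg
Cry1 promoter: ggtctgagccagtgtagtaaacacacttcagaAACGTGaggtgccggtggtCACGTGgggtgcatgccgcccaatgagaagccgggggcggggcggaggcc
Cry2 intron: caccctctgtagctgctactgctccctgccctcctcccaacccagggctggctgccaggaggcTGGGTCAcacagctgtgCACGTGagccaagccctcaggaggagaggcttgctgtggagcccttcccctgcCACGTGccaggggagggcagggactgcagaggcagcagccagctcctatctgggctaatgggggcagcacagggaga
Nr1d1 intron: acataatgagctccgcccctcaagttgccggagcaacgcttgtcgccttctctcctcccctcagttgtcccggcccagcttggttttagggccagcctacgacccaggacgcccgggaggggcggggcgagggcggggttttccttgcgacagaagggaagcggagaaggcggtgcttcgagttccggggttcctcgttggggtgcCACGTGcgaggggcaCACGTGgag
Nr1d2 intron: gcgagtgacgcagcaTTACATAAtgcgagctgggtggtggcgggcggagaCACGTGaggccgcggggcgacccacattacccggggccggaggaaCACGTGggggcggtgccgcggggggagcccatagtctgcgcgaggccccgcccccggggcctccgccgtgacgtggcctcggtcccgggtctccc
Dbp inside: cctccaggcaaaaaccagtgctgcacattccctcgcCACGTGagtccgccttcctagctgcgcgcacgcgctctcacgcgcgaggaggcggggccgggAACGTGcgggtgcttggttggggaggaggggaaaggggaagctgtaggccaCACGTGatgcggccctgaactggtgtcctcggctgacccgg

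Several of these sites held a pair of elements. In the Nr1d1 intron 2 E-boxes were separated by 9 bases, in Nr1d2 by 39 and in Cry2 by 47. The Cry1 promoter held an E-box centred at -48 bp and an E-prime box at -67 bp from the start, with 13 bases between them. The Dbp site held 2 E-boxes with an E-prime box between them, centred 2627, 2689 and 2740 bp after the first Dbp start. The Nr1d2 site also held a D-box.

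D-boxes and ROR elements were found at members with and without an E-box. The Per2 promoter (chr1:91459352-91459585, minus strand) held a D-box centred at -122 bp, and the Per3 promoter (chr4:151044707-151044852 and, on bases of an annotated UTR, chr4:151044852-151044881, minus strand) held 2, centred at -155 and -202 bp with 39 bases between them. ROR elements were found as a pair with 44 bases between them in an intron site of Cry1 (chr10:85161856-85162005, minus strand), a gene whose intron is known as a target of REV-ERB and ROR, singly in the Dbp promoter (chr7:45704856-45705025, plus strand), and with an E-prime box in the intron site beside the Clock promoter (chr5:76303916-76304065, minus strand). A full cyclic AMP element, the element through which CREB acts on Per1, lay in a Per1 site between its first 2 start-site clusters (chr11:69097191-69097220, plus strand); it was picked for printing after the values were seen.
Per2 promoter: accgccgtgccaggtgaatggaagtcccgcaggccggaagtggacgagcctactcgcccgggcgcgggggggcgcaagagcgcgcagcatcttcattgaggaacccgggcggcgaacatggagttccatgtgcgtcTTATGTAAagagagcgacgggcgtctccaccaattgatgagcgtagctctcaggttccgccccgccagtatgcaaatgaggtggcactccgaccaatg
Per3 promoter, nearer to the start: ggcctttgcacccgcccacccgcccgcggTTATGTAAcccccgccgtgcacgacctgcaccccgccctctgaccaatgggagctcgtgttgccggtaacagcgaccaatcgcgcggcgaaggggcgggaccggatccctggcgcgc
Per3 promoter, farther from the start: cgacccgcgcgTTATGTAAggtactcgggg
Cry1 intron: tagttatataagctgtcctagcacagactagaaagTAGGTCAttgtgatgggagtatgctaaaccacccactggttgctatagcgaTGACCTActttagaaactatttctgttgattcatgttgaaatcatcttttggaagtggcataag
Dbp promoter: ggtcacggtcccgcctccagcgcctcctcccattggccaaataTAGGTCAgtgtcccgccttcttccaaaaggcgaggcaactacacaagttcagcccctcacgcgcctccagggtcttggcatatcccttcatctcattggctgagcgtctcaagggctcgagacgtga
Clock intron: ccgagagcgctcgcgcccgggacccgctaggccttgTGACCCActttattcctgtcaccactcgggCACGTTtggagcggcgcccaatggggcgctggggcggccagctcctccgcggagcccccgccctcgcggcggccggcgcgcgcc
Per1 cyclic AMP element: tgcctccgcttTGACGTCAcctccctctcc

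A site found in all 3 replicates, after peaks that share 1 bp or more were merged, is called reproducible. The 10 genes had 33 reproducible promoter sites and 64 reproducible distal sites. In the central 150 bp of the promoter sites an E-box was present in 5 of 33 (15.2%), compared with 5.06% of all 27930 reproducible promoter sites. The 5 were 2 sites of Per1 and 1 each of Cry1, Nr1d2 and Dbp. In distal sites it was present in 5 of 64 (7.81%), compared with 2.29% of all 87488; these were 2 sites of Nr1d1 and 1 each of Per1, Cry2 and Rora. The paired E-boxes of the Nr1d1 intron lie outside the central 150 bp of their site and are not in that count. No E-box letters were found in the central 150 bp of any site of Clock, Per2 or Per3.

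Most counts of the other elements were small, like those of the E-box. The E-prime box was in 5 of 33 promoter sites (15.2%, compared with 2.59% of all), at Clock, Cry1, Cry2, Nr1d1 and Dbp. In distal sites it was in 1 of 64 (1.56%, compared with 2.11% of all). The D-box was in 3 of 33 promoter sites (9.09%, compared with 0.44% of all), at Per2, Per3 and Rora. In distal sites it was in 2 of 64 (3.125%, compared with 0.777% of all). ROR elements were in 2 of 33 promoter sites (6.06%, compared with 2.56% of all) and 3 of 64 distal sites (4.69%, compared with 5.06% of all). The cyclic AMP element was in 0 of 33 promoter sites (1.67% of all) and in 1 of 64 distal sites (0.378% of all). AP-1 letters, which the clock does not use, were in 2 of 33 (6.75% of all) and 11 of 64 (20.9% of all), and the CTCF core in 0 of 33 (1.53% of all) and 3 of 64 (4.55% of all). Several sites of 1 gene enter these counts, and no test was made on them. The replicates' own peaks at the 10 genes held an E-box in 15 of 185, 12 of 187 and 10 of 118 cases, 7.67% ± 1.10 (SD, n = 3). Over all promoter and distal peaks of replicates 1, 2 and 3 the shares were 2.69%, 2.79% and 2.87%. In a window of 300 bp the shares lay closer together, at 11.3% of the 97 sites of the clock genes and 5.29% of all 115418.

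**Figure D1:**
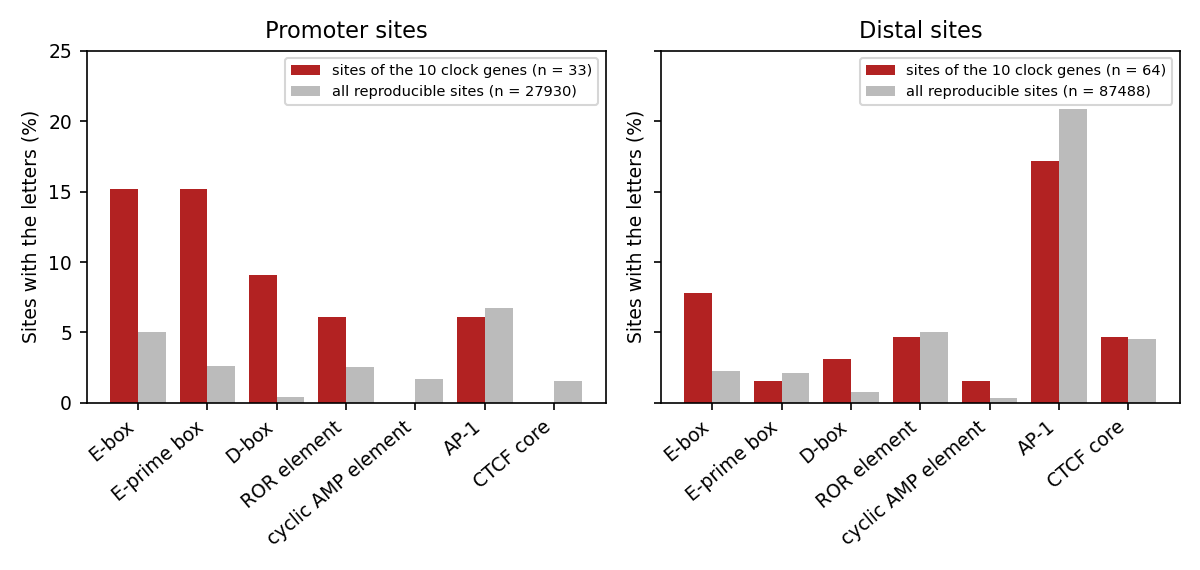
Share of reproducible sites (%) that hold the letters of each element in their central 150 bp, for the 33 promoter and 64 distal sites of the 10 clock genes (red) and for all 27930 and 87488 such sites (grey). The E-box bars of the clock genes stand at 15.2% and 7.81% and their E-prime box bars at 15.2% and 1.56%. The AP-1 bars are below those of all sites in both panels.

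All 10 promoters were open in every replicate, where open means a reproducible site within 1 kb of a start site. The share among all genes was 68.3%, so an open promoter is the common state and the count alone sets these genes apart little. For single replicates the shares of all genes with a promoter peak were 74%, 73% and 70.8%. Each peak in the deposited files carries a score, a whole number from 1 to 150 whose meaning is not stated and which stops at the peak width of 150 bp. It is the authors' own value and was used here to describe and rank peaks. Of the 10 genes 6 lay above the upper quartile of promoter scores (137, 133 and 129 over genes with a peak) in every replicate, compared with 11.7% of all genes. They were Per1, Per2, Cry1, Cry2, Nr1d2 and Dbp.

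The gene of CLOCK, the bHLH-PAS partner of BMAL1 in the activating pair, had one of the lower promoter scores. Clock spans chromosome 5 from 76209868 to 76304792 (mm10, minus strand), and its promoter peak scored 128, 120 and 128 in replicates 1, 2 and 3. All 3 values exceeded the medians of all genes with a promoter peak, which were 123, 115 and 113. A further annotated start inside the gene had no peak within 1 kb in any replicate.

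The period genes encode the repressors whose build-up sets the length of the cycle. Per1 (chromosome 11, 69095217 to 69109960, plus strand) scored 147, 146 and 146, above 96.3%, 97.1% and 99.3% of the genes with a promoter peak. Per2 (chromosome 1, 91415982 to 91459324, minus strand) scored 143, 142 and 132. Per3 (chromosome 4, 151003652 to 151044665, minus strand), inside whose promoter the annotation also places an intron of Camta1, scored 138, 133 and 129. Replicate by replicate Per1 was the highest of these and Per3 the lowest.

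At Per1 more than one promoter was open. Its start sites fall into 3 clusters, taken as starts no more than 1 kb apart, and all 3 had a reproducible site. Of the clusters of all genes 40.3% did. All 3 Per1 clusters hold a coding transcript, and with coding transcripts alone the share over all genes was 52.4%. The strongest site at each scored 147, 146 and 146 at the first, 145, 144 and 139 at the second, and 139, 134 and 121 at the last. All 3 values at the first cluster exceeded those at the others.

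The cryptochromes, flavoproteins that bind the CLOCK and BMAL1 pair and repress it, were similar to each other. Cry1 (chromosome 10, 85131700 to 85185064, minus strand) scored 139, 136 and 138 and Cry2 (chromosome 2, 92403646 to 92434043, minus strand) 145, 140 and 145, with Cry2 higher in each replicate. At Cry1 the strongest peak of replicates 1 and 2 was centred at -346 bp and that of replicate 3 at -26 bp from the start. The sites at both positions were reproducible, with 139, 136 and 134 at the upstream one and 136, 128 and 138 at the one over the start, where the E-box lies.

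The REV-ERB genes had promoter peaks close to the top of the scale. Nr1d1 (chromosome 11, 98767932 to 98775333, minus strand) scored 146, 144 and 128, and Nr1d2 (chromosome 14, 18204054 to 18239127, minus strand) 146, 148 and 144. Replicate 3 was the low one at Nr1d1. In replicates 1 and 2 Nr1d1 exceeded 94.2% and 94.1% of genes with a peak, and in replicate 3 it exceeded 72.6%.

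Rora, which encodes the activating receptor RORα, had the lowest promoter score of the 10 genes in every replicate. It spans 734 kb of chromosome 9 (68653786 to 69388246, plus strand), and its strongest peak scored 113, 109 and 117, above 38.9%, 43.8% and 54.2% of the genes with a peak. The strongest peak lay at different promoters, 148 bp after the last start, deep inside the gene, in replicates 1 and 2 and at -196 bp from the first start in replicate 3. Both sites were reproducible, with 107, 98 and 117 at the first start and 113, 109 and 95 at the last, so the scores of the sites overlapped. One of the 4 start-site clusters, that of a noncoding transcript, had no peak.

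Dbp, the output factor, is the smallest of the genes at 5.12 kb (chromosome 7, 45705088 to 45710203, plus strand). Its promoter peak scored 146, 141 and 138, and it had 5 reproducible promoter sites in all. The site printed above with E-boxes, inside the gene, scored 131, 134 and 125, one over a coding exon 111, 110 and 120, and one in an intron 128, 117 and 126. The site upstream of the promoter, at 118, 101 and 96, also lay within 1 kb of a start of Car11, a neighbouring gene. The first 2 of these count as promoter sites only because noncoding transcripts of Dbp are annotated to start beside them. With starts of coding transcripts alone they are distal, and Dbp has 3 promoter and 2 distal sites.

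**Figure D2:**
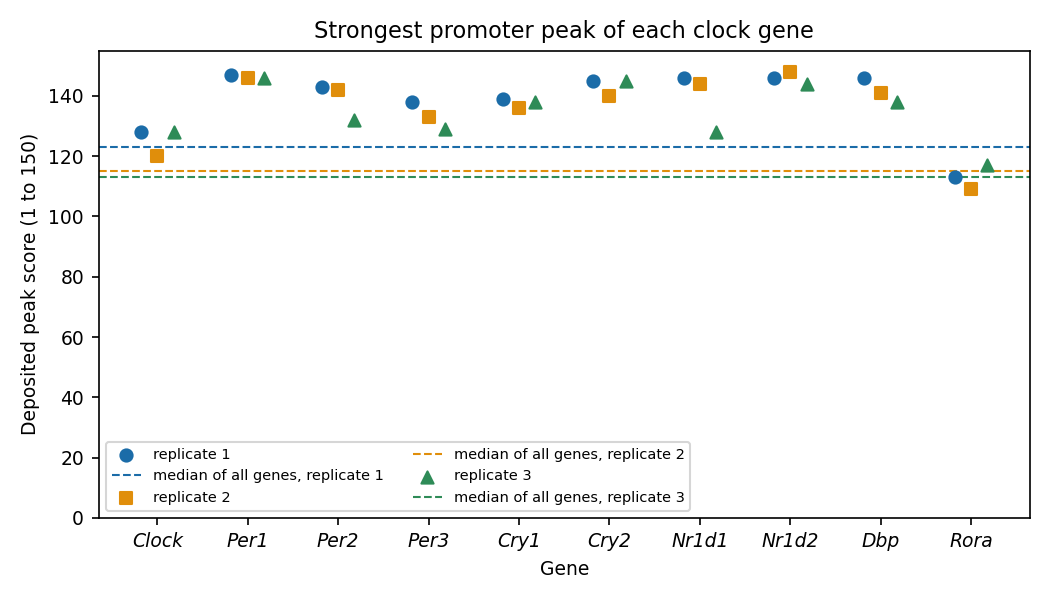
Deposited score of the strongest promoter peak (y axis, 1 to 150) of each clock gene in replicates 1, 2 and 3 (points), with the median over all genes that have a promoter peak in that replicate (dashed lines at 123, 115 and 113). Rora is lowest in every replicate, at 113, 109 and 117, and Clock next at 128, 120 and 128, tied with Nr1d1 in replicate 3.

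Of the 25 start-site clusters of the 10 genes 16 had a reproducible site (40.3% of the clusters of all genes did). The 9 without one all lay inside their gene, after its first start, and none of them had a peak in any replicate. With coding transcripts alone 13 of 15 did (52.4% of all), and the 2 without were inner starts of Clock and Cry1. The RefSeq promoter windows, from 250 bases before to 50 after a start, covered 9 of the 10 genes with 12 windows, and Per2 was not among them. The observed to expected CpG ratio was over 0.6 in 9 of the 12, compared with 36.0% of all 32619 windows. The lowest was Nr1d1 at 0.404.

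Distal sites were unevenly spread over the 10 genes. The median was 4.5 reproducible distal sites per gene, compared with 2 over all genes, and 7 of the 10 exceeded the all-gene median (41.8% of all genes did). Over the 14848 genes with an open promoter the median was 3. Rora had 31 sites, Cry1, Nr1d1 and Nr1d2 had 6 each, Per2 had 5, Per1 and Cry2 had 4, Clock and Per3 had 1, and Dbp had none. In replicates 1, 2 and 3 the distal peaks numbered 66, 74 and 39 at Rora, 13, 13 and 8 at Cry1, 12, 8 and 9 at Nr1d1, and 13, 12 and 11 at Nr1d2. They numbered 17, 12 and 5 at Per2, 5, 4 and 4 at Per1, 8, 11 and 4 at Cry2, 6, 6 and 1 at Clock, 3, 2 and 1 at Per3, and 0, 1 and 0 at Dbp. Replicate 3 had the lowest count at 7 of the 10 genes and shared it with replicate 2 or 1 at Per1 and Dbp. At Nr1d1 replicate 2 was lowest. Replicate 3 was low over the whole genome too, with a median of 4, 4 and 2 distal peaks per gene over all genes in replicates 1, 2 and 3.

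**Figure D3:**
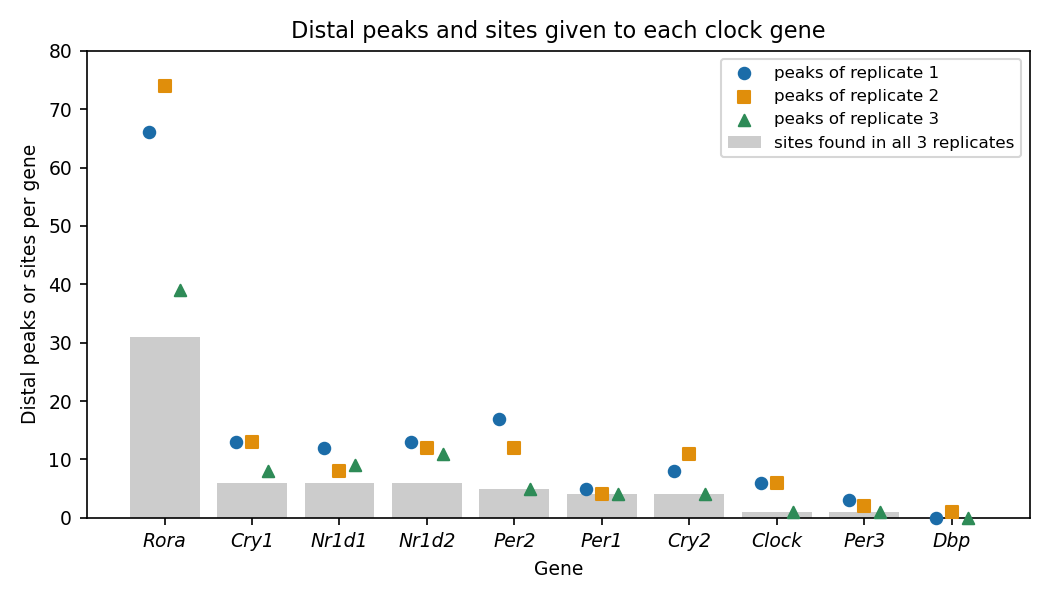
Distal peaks of replicates 1, 2 and 3 (points) and distal sites found in all 3 (grey bars, from 0) given to each clock gene. Rora stands apart with 66, 74 and 39 peaks and 31 sites, and no other member exceeds 17 peaks or 6 sites.

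The order changed when the counts were set against the genome that is nearest to each gene. Per 100 kb of such sequence Per1 had 32.1 sites, Nr1d1 30.9, Cry2 15.2, Per2 12.2, Rora 7.01, Nr1d2 4.34, Cry1 4.20, Per3 2.59 and Clock 1.34, compared with a median of 4.11 over all genes and 5.26 over genes with an open promoter. The leading values rest on few sites: the 4 sites of Per1 became 1 with a promoter window of 2500 bp and 2 with hotspots in place of peaks, and the 6 of Nr1d1 became 3 with hotspots. The sequence given to Per1 was 12476 bp and that given to Rora 442252 bp. Dbp, hemmed in by Car11 and Sphk2 and with starts of noncoding transcripts of its own inside it, was given only 1777 bp.

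Most distal sites lay inside the genes themselves. Of the 64 sites 49 were in introns, 14 between genes and 1 in a UTR, and 49 lay inside the body of the gene they were given to. A further 13 lay upstream of the first start. Of the rest, one was given to Nr1d1 but lies in an intron of Thra, which overlaps the end of Nr1d1, and the other lies downstream of Nr1d2. Rora, a gene of 734 kb, had 31 of the 64 sites, most of them inside the gene. The same shares over all distal sites were not measured, so these counts cannot be read as a trait of the clock genes.

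At Nr1d1 a distal site scored at least as high as the promoter in every replicate, while the strongest distal sites of Per1 and Cry2 scored below theirs in every replicate. The Nr1d1 intron site with paired E-boxes scored 146, 144 and 140, equal to the promoter in replicates 1 and 2 and above its 128 in replicate 3. This site lies 1248 bp from the Nr1d1 start, just outside the 1 kb window, and a window of 2500 bp makes it a promoter site. Another Nr1d1 site, chromosome 11 from 98783436 to 98783625 and centred at -8197 bp, held an E-box and scored 141, 140 and 141. At Per1 the site with the cyclic AMP element scored 141, 140 and 140, and the next site, with an E-box, 133, 120 and 83. At Cry2 the intron site with 2 E-boxes scored 123, 122 and 133. Of these sites the E-box site of Per1 was the one whose score in replicate 3 lay far below the other two.

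Among the other members the strongest distal sites ran from some of the weakest scores, at Clock, to a site at Rora that outscored the promoter in 2 replicates. The Cry1 intron site with paired ROR elements, centred 23134 bp after the start, scored 127, 118 and 65. The strongest distal site of Per2, in an intron 3244 bp after the start, scored 113, 101 and 96. The strongest of Nr1d2, in a UTR, scored 70, 55 and 30. The only one of Clock scored 22, 29 and 27 and the only one of Per3 56, 50 and 39. The strongest of Rora, upstream at chromosome 9, 68625076 to 68625245, scored 138, 140 and 115, above the gene's own promoter in replicates 1 and 2 and just below it in replicate 3.

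**Figure D4:**
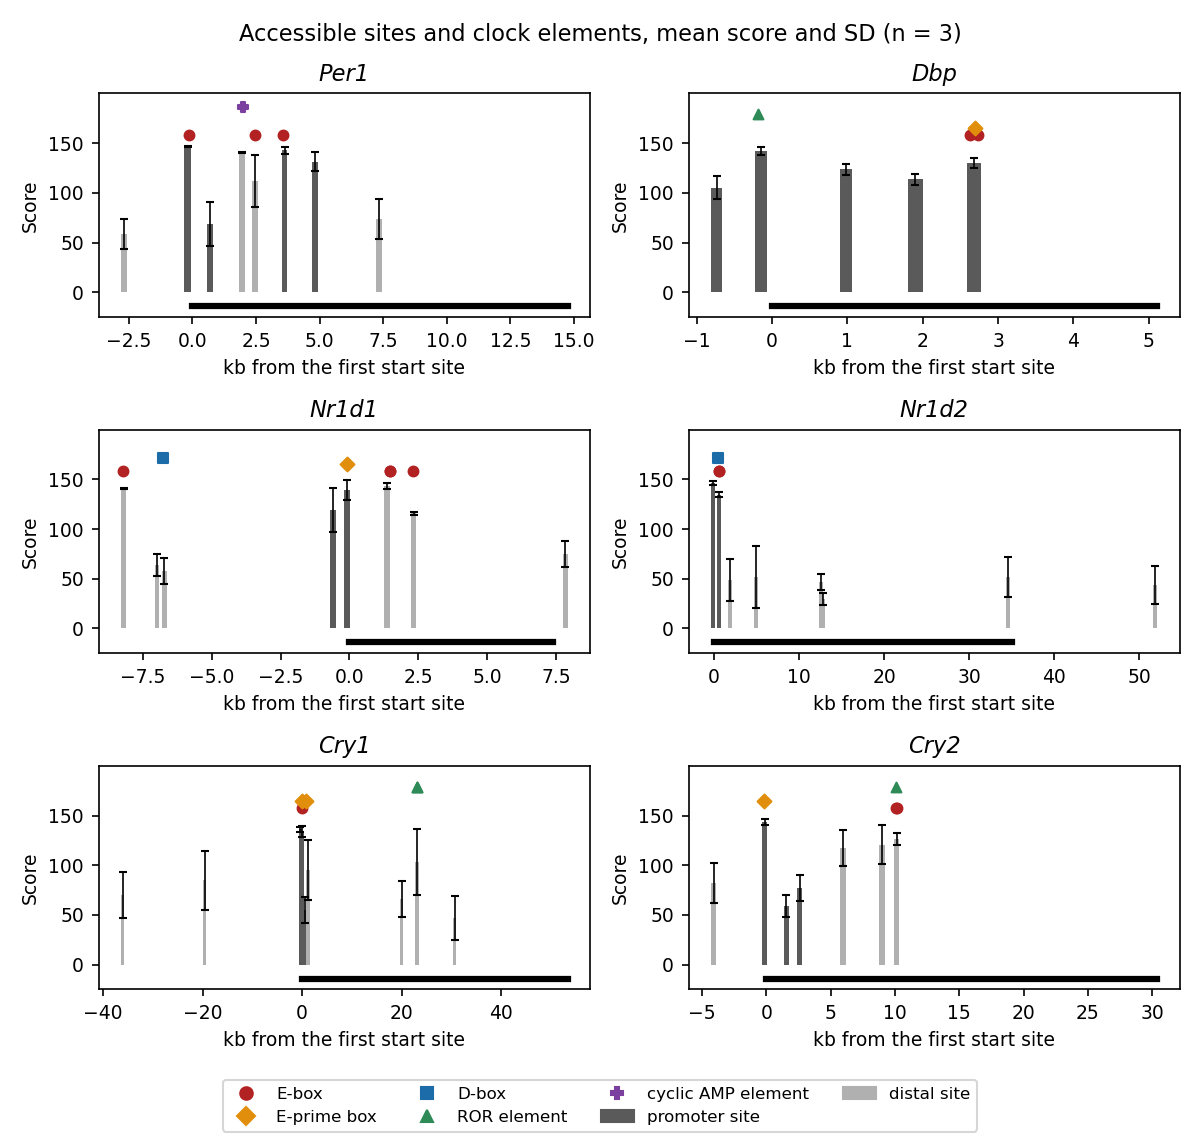
Reproducible sites of 6 clock genes, drawn by distance from the first start site (x axis, kb, gene strand; black line, gene body), with the mean deposited score as bars from 0 and its SD over 3 replicates as error bars; narrow bars are widened to be seen. Symbols above mark the elements found anywhere in a site, for example the E-boxes in the Nr1d1 site that scored 146, 144 and 140.

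Rora also held many sites that the 100 kb limit leaves out. A total of 32 reproducible sites inside the gene lay over 100 kb from every start site. The other 9 genes are each under 100 kb long, so no position inside them can lie that far from a start. The strongest of these, 103156 bp from the nearest start, scored 107, 111 and 112. With a limit of 200 kb Rora had 50 distal sites in place of 31. The sites between the first start and the last one were spread along the long introns.

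**Figure D5:**
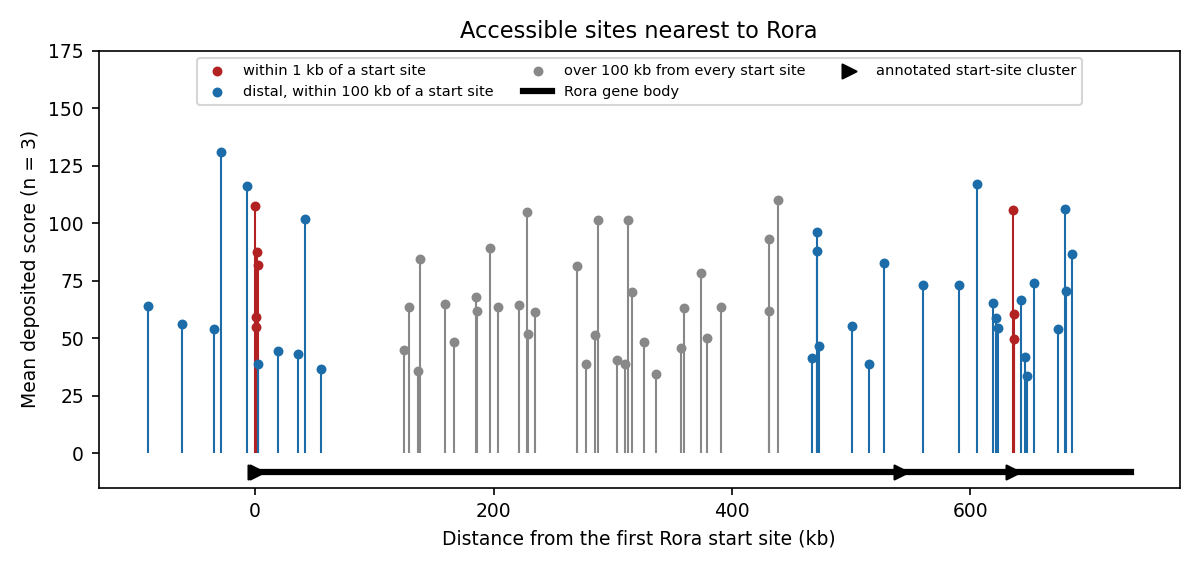
Reproducible sites whose nearest start site is that of Rora, by distance from its first start (x axis, kb), with the mean deposited score over 3 replicates (y axis); black, the gene body of 734 kb and its annotated start-site clusters. Promoter sites (red) sit at 3 of 4 clusters, and the 32 grey sites lie over 100 kb from every start.

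As over all genes, many distal regions near the clock genes were found in replicates 1 and 2 only. Of 171 distal regions with a peak in any replicate, 64 (37.4%) were in all 3, compared with 39.7% of all 220126 distal regions, and 54 (31.6%) were in replicates 1 and 2 without replicate 3, compared with 27.3%. Rora had 28 of those 54, out of 83 distal regions in all (33.7%). Per2 had 7 of 17, Cry1 5 of 17, Cry2 4 of 10 and Clock 4 of 6. Without replicate 3 the 10 genes had 118 distal sites in place of 64, with 59 in place of 31 at Rora, 12 in place of 5 at Per2, 11 in place of 6 at Cry1 and 5 in place of 1 at Clock. Leaving it out also raised the median over all genes, from 2 to 3 distal sites, and that of the 10 genes went from 4.5 to 8. Replicate 3 had fewer peaks in all. The summed promoter score of the 19 microglia and macrophage markers was 1538, 1468 and 310 in replicates 1, 2 and 3. Spi1, Csf1r, Cx3cr1 and the C1q genes were among the 13 without a peak in replicate 3. The loss was not uniform, since Irf8 scored 118, 117 and 115 and Tmem119 76, 63 and 68. P2ry12, Cd68, Ly86 and Lyz2 kept a peak in replicate 3 but were lowest there. The summed score of the 6 endothelial markers was 452, 405 and 297, with Cdh5 peaks in replicates 1 and 2 only and none for Emcn. Pecam1 and Tek were lowest in replicate 3, while Kdr was highest there (124, 109 and 129) and Cldn5 scored 48, 32 and 42. For the 12 Müller glia markers the sum was 1484, 1398 and 1341. The part of peak number, of microglia and macrophages or of endothelium in the regions missing from replicate 3 was not tested. In a bulk sample fewer cells of a type and less accessible chromatin per cell cannot be told apart.

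Scores at sites found in all replicates followed the same order as elsewhere in the genome. Replicate 3 had the lowest score at 53 of the 64 distal sites (82.8%), compared with 82.2% of all reproducible distal sites, and at 18 of the 33 promoter sites (54.5%), compared with 50.6%. The median distal score of the 10 genes was 84.5, 68.5 and 45.5 in replicates 1, 2 and 3, and 78, 64 and 45 over all distal sites. The median promoter score was 125, 117 and 117, compared with 99, 86 and 86 over all promoter sites.

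Promoters of a list of other clock genes were open as well. The 21 genes counted were the partners and relatives of the members (Arntl, Arntl2, Npas2 and Rorb), repressors and bZIP factors (Bhlhe40, Bhlhe41, Nfil3, Tef, Hlf and Ciart), kinases and ubiquitin ligases of PER and CRY turnover (Csnk1d, Csnk1e, Gsk3b, Btrc, Fbxw11 and Fbxl21) and Timeless, Usp2, Nampt, Wee1 and Noct. All 21 had an open promoter (68.3% of all genes), and 19 of 21 exceeded the all-gene median of distal sites (41.8% of all genes). Their median was 10 distal sites, and 8 of 21 lay above the upper quartile of promoter scores in every replicate (11.7% of all genes). Arntl, which encodes BMAL1, had the most distal sites with 38 and promoter scores of 150, 145 and 140. Npas2, a paralogue of Clock, had 21 distal sites and low promoter scores of 74, 67 and 68, and Rorb, an ROR gene of the retina and brain, had 19 and scored 139, 132 and 133. Ciart and Timeless had no reproducible distal site.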

How the data were processed

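DNase-seq was carried out on 3 replicates of primary mouse Müller cells. Per the deposited descriptions, the authors derived each peak and hotspot list from the filtered mm10 alignments of 1 library plus 1 further file, without pooling; which aligner, caller and filters were used is not given in the sources used here. The deposited peak value is a score without a stated meaning, and the deposited hotspot value is a −log10 q, capped at 100. Depth is unknown, and no counting interval was given.

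Peaks at repeated positions were removed (21, 20 and 23 in replicates 1, 2 and 3). Python 3.11.15, numpy 2.4.6 and pandas 2.3.3 were used to merge peaks over replicates at 1 bp of overlap, to measure distances from peak edges to start sites of all transcripts of protein-coding genes (GENCODE M21), and to search both strands; each step was tested on simulated data. With 1 group no test was run, and counts stand beside those of all genes or sites. The genes and lists were chosen with earlier results of these data known, and some genes of the lists are not reported here and left out of their counts. Named were all members, each member's strongest sites by mean rank, and, of the other clock genes, up to 3 with closed promoters or the most distal sites. Printed sequences were those of promoter sites, and strongest distal sites, with an E-box, D-box or ROR element, except one site of Rora. Alternatives covered windows, limits, filters, overlap, start sites, hotspots and each replicate left out.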

Additional observations from a re-analysis of the deposited data

How the results depend on the processing

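All 10 promoters stayed open under every alternative run: windows of 500 bp and 2500 bp, hotspots, the strongest 50% of peaks, equal peak numbers, an overlap of 75 bp, coding start sites, sites nearest to the own start, and each replicate left out, where the count was 10 each time. The 64 distal sites became 36 with the strongest 50% of peaks, and 65 to 118 with a replicate left out, 118 being the value without replicate 3. Under the other alternatives run the number was between 56 (window of 2500 bp) and 85 (limit of 200 kb). The E-box share of 10.3% over all 97 sites was 15.2% over promoter sites alone and 7.81% over distal sites alone, which is a change of population, and 8.23% to 11.1% with a replicate left out, the lowest without replicate 3, which adds sites; it was 11.3% with 300 bp or the whole region. Over all sites the share was 2.96%, and 5.29% with 300 bp, 3.68% with the whole region and 2.83% without replicate 3. Counts at single genes moved by over 1.5 times in 20 of 120 cases; the cause was not tested. No paired analysis was possible because there is 1 group. Depth is unknown and the score stops at 150, so differences among the strongest promoters cannot be resolved.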

Other observations

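The hotspots of the deposited files are wider accessible regions than the peaks. The length of the one over the strongest promoter site was 1777, 1704 and 4131 bp at Dbp in replicates 1, 2 and 3. It was 560, 660 and 2126 bp at Rora, 1967, 1936 and 1575 bp at Per1, and 1771, 1696 and 1639 bp at Nr1d2. Replicate 3 had the longest hotspot at Dbp and Rora and the shortest at Per1 and Nr1d2.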
